A study of Mus musculus with 8 samples.

Results

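Epididymal fat is a white adipose depot that lies against the epididymis. Transcripts typical of that duct read at very different levels in the 8 fat samples examined here, and their source was not tested. The arrays were divided by 1 transcript, Gpx5, a secreted glutathione peroxidase made by the epididymal epithelium. Arrays on which its brightest probe set with a single gene symbol had a log2 value of 10 or more formed the high side, and arrays under 10 formed the low side. This selected on the measured values of the same 8 arrays and gave 4 arrays a side, each with 2 prednisolone and 2 vehicle mice, out of 8 arrays in all. Every array came from 1 male C57BL/6 mouse, weaned at 3 weeks onto a diet that held 45% of its energy as fat and was rich in n-6 fatty acids. The prednisolone mice (GC+) received this synthetic glucocorticoid daily for 4 weeks from 6 weeks of age, at a labelled dose of 40 mg/kg/m2, in sweet potato puree, and the vehicle mice (GC-) received the puree alone. Fat was taken from the left pad at 10 weeks. Arrays are named GC+1 to GC+4 and GC-1 to GC-4 by the replicate number of their label, and the labels call the mice biological replicates.

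The epididymis is a long coiled duct in which sperm leaving the testis mature and are stored. Its principal cells secrete lipocalins, ribonuclease A family proteins, protease inhibitors, beta-defensins and antioxidant enzymes into the lumen, much of it under androgen control, while clear cells acidify the fluid. Many of these genes are expressed in only part of the duct, so that the initial segment, caput, corpus and cauda each have a characteristic set of secreted proteins.

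The values that chose the arrays were as follows. Gpx5 read 13.78 and 13.61 in GC-1 and GC-4 and 13.81 and 11.27 in GC+2 and GC+1. It read 8.69 in GC-3, 4.19 in GC-2, and 4.57 and 4.76 in GC+3 and GC+4. The array just inside the threshold was thus GC+1 at 11.27 and the array just outside it GC-3 at 8.69, and both stood apart from the other arrays of their side. Gpx5 was left out of every fit and count below. All values are log2 expression values, and differences are high minus low means from a limma model with treatment as a covariate, given with the standard error of that model (n = 4 arrays a side).

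The other marker genes showed that the split by Gpx5 was not a split into like samples. Adam7, a membrane protein of the epididymal epithelium, read 13.57 and 13.21 in GC-1 and GC-4, 13.21 and 9.15 in GC+2 and GC+1, and between 5.08 and 6.65 on the low side, a difference of 6.56 ± 0.85. Lcn5, a retinoid-binding lipocalin, read 13.82, 13.64, 10.22 and 8.51 on the same 4 arrays and between 6.53 and 7.83 on the low side (4.28 ± 0.92). Spint4, a Kunitz-type protease inhibitor, read 12.31 and 12.12 in GC-1 and GC-4 but 6.68 in GC+2 and 8.56 in GC+1, against 3.11 to 5.56 on the low side (5.55 ± 0.83). For each of these genes the sides did not overlap, as was also the case for Rnase9. GC+2, the array with the highest Gpx5, was level with GC-1 and GC-4 for Adam7 and far below them for Lcn5, Rnase9 and Spint4.

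**Figure D1:**
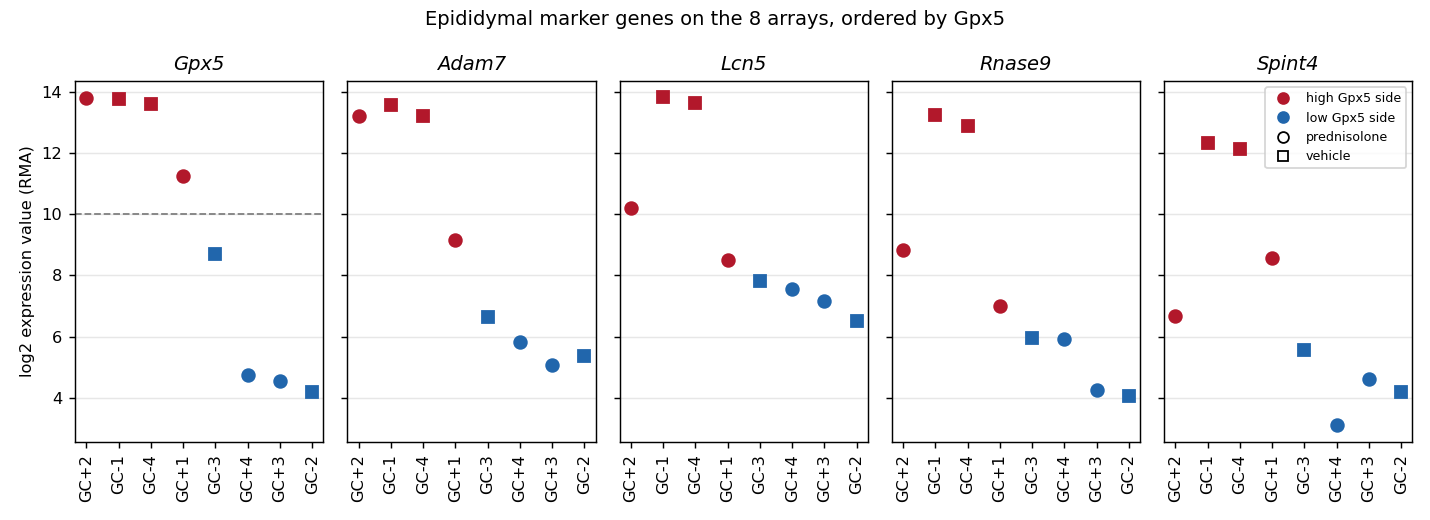
Log2 expression values of Gpx5 and 4 further epididymal marker genes on the 8 arrays, ordered from the highest to the lowest Gpx5 value. Red points are the high side, blue points the low side, circles prednisolone and squares vehicle mice, and the dashed line is the Gpx5 threshold of 10. GC+2 has Gpx5 of 13.81 but Spint4 of 6.68.

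Fat cell transcripts were bright on all 8 arrays. Fabp4, the fatty acid binding protein of adipocytes, read between 13.72 and 13.97, and Adipoq, which encodes adiponectin, between 11.74 and 12.29. Array medians lay between 6.09 and 6.13, no pair of arrays held identical values, and the correlation between arrays over the tested genes ranged from 0.88 to 0.986. The first principal component, with 59.4% of the variance of the tested genes, scored 58.8 and 41.2 for GC-1 and GC-4, 16.7 for GC+2 and -16.2 for GC+1. The low side scored between -26.6 and -22.4. In bulk RNA, fewer cells of a type and less RNA per cell cannot be told apart.

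Across 14786 tested genes, 1 gene had a limma adjusted p under 0.05 for high minus low, which is 0.00676% of them, and 0 genes, 0%, were called lower. The called gene was Cuzd1, which encodes a membrane protein with CUB and zona pellucida-like domains. It read 12.99 and 12.68 in GC-1 and GC-4, 11.23 and 9.39 in GC+2 and GC+1, and between 5.34 and 6.89 on the low side. The difference was 5.60 ± 0.46 with a limma adjusted p of 0.0461. This p describes an association with a split made from the same arrays. Without adjustment, 1135 genes were higher and 1034 lower at p under 0.05. All tested genes had a median difference of -0.03, and 352 genes were over 1 log2 unit higher while 10 were over 1 lower. The high side exceeded the low side on every array for 398 genes, 2.69% of those tested, and lay below it on every array for 479 genes, 3.24%. The number of adjusted calls rested on the intermediate array. Without GC+1, limma called 284 genes higher and 19 lower, and without any other single array it called 0. With the threshold at 12, which moves GC+1 to the low side, it called 378 higher and 52 lower.

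The gene lists of the epididymis held 95 genes besides Gpx5, of which 90 were named on the array and 66 passed the filter on dim genes. Of the 66, 65 had a positive difference and 1 a negative one, and the median difference was 3.18. For 42, or 63.6%, every high-side array lay above every low-side array, against 2.69% of all tested genes. The low side had a mean under that filter for 31 of the 66, which thus passed through the high side, and these counts are a description of the arrays that Gpx5 chose. No p is given for these genes in this comparison. Of the 24 genes left out as dim, 18 were highest in GC-1, 3 in GC+2, 2 in GC-4 and 1 in GC+3. Cst12, a cystatin, and Rnase10 read 10.34 and 9.59 in GC+2 and at most 6.17 and 5.91 on the other arrays. Defb11 and Defb38, beta-defensins, read 9.71 and 9.78 in GC-1, 9.16 and 8.18 in GC-4, and 3.66 and 4.57 in GC+2.

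The lipocalins, which carry small hydrophobic molecules such as retinoids, were higher on the high side for 6 of 6 genes, with a median difference of 3.73. They lie close together on chromosome 2 and did not share an order of arrays. Lcn8 read 13.51 in GC+2, 9.52 and 9.26 in GC-1 and GC+1, and 6.64 in GC-4, below the 6.91 of GC-3 on the low side. The low side otherwise read between 5.76 and 5.95, and the difference was 3.60 ± 1.19. Lcn9 had the same order at the top, with 13.61 in GC+2 and 10.12, 9.99 and 5.80 in GC-1, GC+1 and GC-4, against 5.45 to 7.31 on the low side (3.85 ± 1.39). Both genes overlapped between the sides because of GC-4. Lcn12 read 13.20 and 12.74 in GC-1 and GC-4, 9.25 in GC+2, 6.96 in GC+1 and 6.20 to 6.71 on the low side (4.07 ± 0.998). Lcn12 and Lcn5 were thus highest where Lcn8 and Lcn9 were not. Lcn10 followed Lcn8, with 12.16 in GC+2 and 6.26 to 7.73 on the other arrays, and Lcn6 was also highest there at 8.98.

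The 250 bases before the start site of 4 of these lipocalin genes are shown because neighbouring genes of the cluster had opposite orders on the high-side arrays. The sequences are from RefSeq, build GRCm38.p6, written 5′ to 3′ on the strand of the gene. They lie at chr2:25652868-25653117 (plus strand) for Lcn8, chr2:25822903-25823152 (plus) for Lcn9, chr2:25657702-25657951 (plus) for Lcn5 and chr2:25493912-25494161 (minus) for Lcn12. Capitals mark TGTTCT or its reverse complement AGAACA, the 6-base core of the elements that androgen and glucocorticoid receptors bind.
Lcn8: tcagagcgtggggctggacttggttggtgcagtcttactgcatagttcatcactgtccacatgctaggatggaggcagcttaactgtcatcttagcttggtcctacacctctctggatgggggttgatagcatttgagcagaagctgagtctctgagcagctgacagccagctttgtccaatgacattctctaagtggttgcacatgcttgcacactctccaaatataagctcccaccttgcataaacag
Lcn9: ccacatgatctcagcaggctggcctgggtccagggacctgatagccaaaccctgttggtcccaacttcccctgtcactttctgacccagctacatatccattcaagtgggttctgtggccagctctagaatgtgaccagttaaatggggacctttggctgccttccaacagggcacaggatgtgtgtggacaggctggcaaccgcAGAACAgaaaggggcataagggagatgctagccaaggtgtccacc
Lcn5: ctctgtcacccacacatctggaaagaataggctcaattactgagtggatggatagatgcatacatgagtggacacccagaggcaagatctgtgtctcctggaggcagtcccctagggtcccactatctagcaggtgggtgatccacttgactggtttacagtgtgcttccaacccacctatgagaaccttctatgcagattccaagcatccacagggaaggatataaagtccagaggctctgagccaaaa
Lcn12: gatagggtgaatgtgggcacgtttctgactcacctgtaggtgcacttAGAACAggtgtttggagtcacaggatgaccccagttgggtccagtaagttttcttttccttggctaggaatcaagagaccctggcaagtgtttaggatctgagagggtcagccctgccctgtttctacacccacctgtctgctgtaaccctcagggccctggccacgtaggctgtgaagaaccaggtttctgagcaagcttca
Lcn9 held 1 match, beginning 45 bases before the start site, and Lcn12 held 1, beginning 203 bases before it, while the windows of Lcn8 and Lcn5 held 0. The windows of Lcn10 and Lcn6, which were also highest in GC+2, held 1 match each, 163 and 189 bases before the start site, and are not printed. A match was thus present in 3 of the 4 lipocalin genes that were highest in GC+2 and in 1 of the other 2. RefSeq windows were found for 52 of the 66 tested epididymal genes, and 17 of their 61 windows, or 27.9%, held the motif on either strand. It was held by 11.5% of the windows of all tested genes and by 16.1% of all 32851 windows. Epididymal windows were poorer in G and C, with a median of 50.8% against 59.2% for tested genes. Among windows with GC content under 50%, 8 of 25 epididymal windows (32.0%) and 20.8% of the windows of other tested genes held the motif. A match to 6 letters is a description and not a binding site.

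The tested ribonuclease A family genes, which encode secreted proteins of the duct, were higher for 4 of 4 members with a median difference of 3.57. Rnase9 read 13.24 and 12.89 in GC-1 and GC-4, 8.84 and 6.998 in GC+2 and GC+1, and 4.06 to 5.96 on the low side (5.44 ± 1.11). Rnase13 read 11.39 and 10.82 in GC-1 and GC-4, but 5.86 and 4.99 in GC+2 and GC+1, within the 4.53 to 5.90 of the low side. Rnase12 differed by 3.94 ± 0.78 and Rnase11 by 1.33 ± 0.21, each with sides that did not overlap.

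Protease inhibitors of the Spint, Spink, cystatin and Wfdc families protect sperm and the duct from proteolysis. They were higher for 17 of 18 tested members, with a median difference of 3.37. Sides did not overlap for 15 of the 18, against 2.69% of all tested genes in this direction. The limit of the filter given for the 66 genes holds here too. Wfdc15b, a whey acidic protein domain gene, read 10.62 and 9.84 in GC-1 and GC-4, 8.85 and 7.24 in GC+2 and GC+1, and 4.65 to 5.39 on the low side (4.17 ± 0.44). It had the smallest error relative to its difference in the list. Spink8, a Kazal-type inhibitor, read 13.52, 13.27, 9.48 and 9.41 on the same arrays and 5.70 to 6.71 on the low side (5.28 ± 0.72). Wfdc10 read 13.12, 12.55, 11.96 and 9.28, against 7.04 to 7.49 (4.49 ± 0.65). Eppin, an inhibitor that coats sperm, was close to level on 3 arrays, at 10.59 in GC-1, 10.83 in GC+2 and 9.61 in GC-4, and read 7.18 in GC+1 and 5.60 to 6.24 on the low side. Cst11, a cystatin, read 12.25 in GC+2 but 4.78 in GC-4, inside the 4.29 to 5.68 of the low side. The single member with a negative difference, Wfdc15a, read between 6.23 and 6.52 on all 8 arrays.

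Beta-defensins, small cationic peptides with antimicrobial activity that also bind to sperm, were higher for 16 of 16 tested members, with a median difference of 3.24. Defb42 read 12.41 and 11.87 in GC-1 and GC-4, 11.12 in GC+2, 6.83 in GC+1 and 4.33 to 5.32 on the low side (5.76 ± 0.998). Defb23 read 13.70, 13.51, 9.11 and 9.94 on these arrays, with GC+1 above GC+2, and 5.58 to 7.19 on the low side (5.28 ± 0.79). Defb48 was highest in GC+2 at 13.20, read 9.80 and 9.88 in GC-1 and GC+1, and read 6.25 in GC-4, below the 6.80 of GC-3. Defb20 was also highest in GC+2, at 12.75, but stayed at 9.99 in GC-4 and kept the sides apart (4.81 ± 0.79). Defensin genes resemble one another in sequence, so that the signals of single members on an array may not be separate.

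Of the other duct genes, 22 of 22 tested members had positive differences with a median of 2.25. Crisp4, a cysteine-rich secretory protein that binds sperm, read 11.01 and 10.27 in GC-1 and GC-4, 10.20 and 5.80 in GC+2 and GC+1, and 4.01 to 4.49 on the low side (5.08 ± 0.96). Ros1, a receptor tyrosine kinase needed for the initial segment of the mouse duct, read 9.60, 8.96, 9.18 and 5.80, against 4.67 to 5.11 (3.50 ± 0.71). Adam28 read 12.71 in GC+2, 8.46 and 8.24 in GC-1 and GC+1, and 5.95 in GC-4, within the 5.81 to 6.04 of the low side. The differences of the list ranged widely: Npc2, a cholesterol carrier, differed by 0.27 ± 0.19, Teddm3 by 0.097 ± 0.16 and Clu, clusterin, by 1.20 ± 0.30, while Cd52, which leukocytes also express, differed by 2.09 ± 0.32. Genes of the clear cells, which acidify the lumen, were higher for 8 of 8 tested members with a median of 0.86. Against 2.69% of all tested genes in this direction, 2 of the 8 had sides that did not overlap. These were Atp6v1g3, a proton pump subunit (1.66 ± 0.45), and Foxi1, the transcription factor of such acid-secreting cells (0.90 ± 0.28). The low-side mean of Atp6v1g3, 5.18, lay under the filter on dim genes, so that it was tested through the high side. That of Foxi1 was 7.17. The counts of this list are a description.

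**Figure D2:**
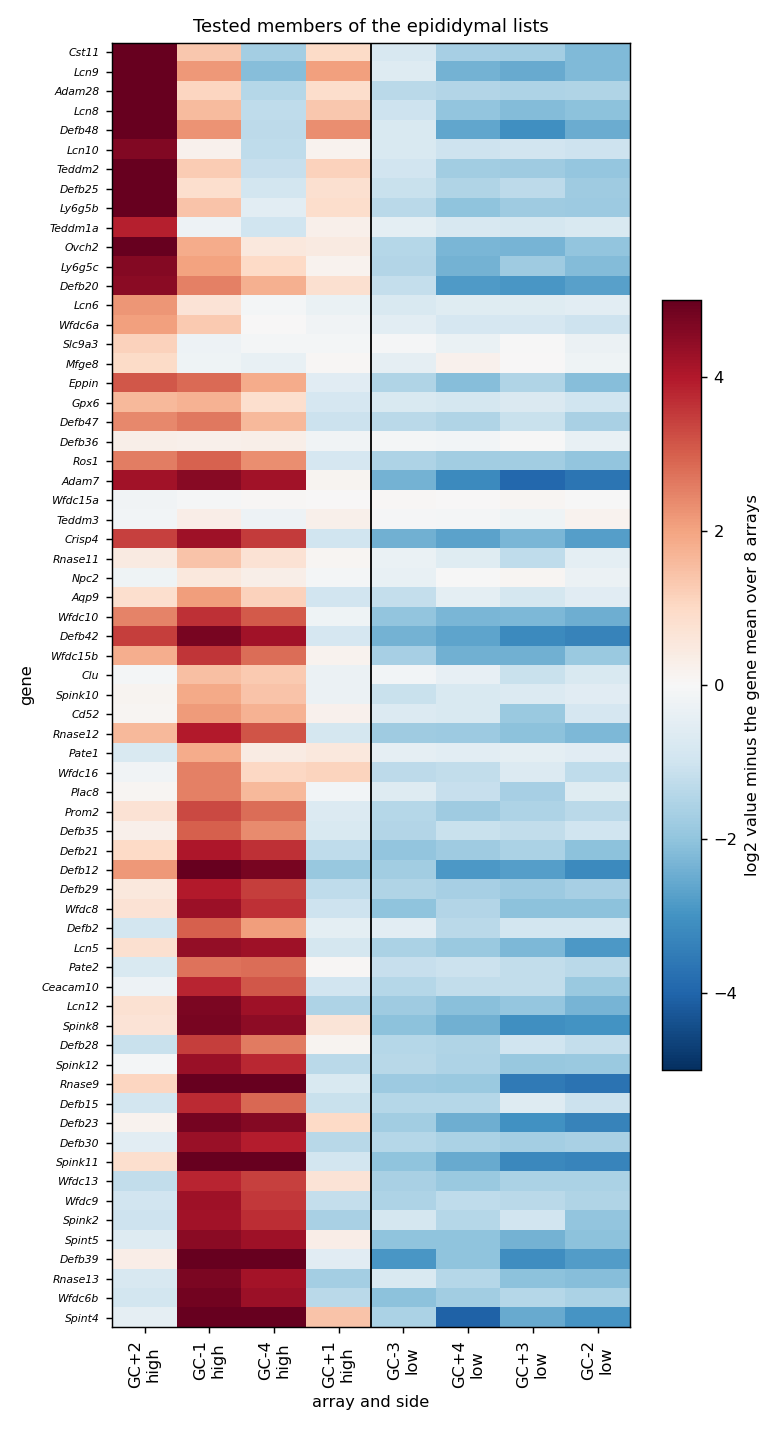
Log2 values of the 66 tested epididymal genes on the 8 arrays, each minus the mean of the gene over 8 arrays. Colours are limited to differences of 5 either way, the black line separates the high side (left) from the low side, and genes are ordered by how far GC+2 exceeded the mean of GC-1 and GC-4. Genes at the top are red mainly in GC+2 and genes at the bottom mainly in GC-1 and GC-4.

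Within the high side the epididymal genes fell into different orders. GC-1 was the highest of all 8 arrays for 45 of the 66 genes and GC+2 for 19. The lowest high-side array was GC+1 for 41 genes, and the highest low-side array was GC-3 for 38. GC+2 exceeded the mean of GC-1 and GC-4 by over 1 log2 unit for 17 genes, was over 1 below it for 36, and lay within 1 of it for 13. The genes that were over 5 units higher in GC+2 were Cst11, Lcn9, Adam28, Lcn8, Defb48, Lcn10, Teddm2 and Defb25. Lcn8 and Lcn9 are known from the proximal end of the duct in mice, and Lcn5 and Spint4 from more distal parts of the caput and beyond. Ros1, needed for the initial segment, did not have the order of Lcn8, with 9.60 in GC-1, 9.18 in GC+2 and 8.96 in GC-4. Whether the orders reflect parts of the duct was not tested. GC-1 was above GC-4 for genes of both orders, by little for Lcn5 (13.82 and 13.64) and by much for Lcn9 (10.12 and 5.80).

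Actg2, the gamma actin of visceral smooth muscle, shared the order of Lcn8. It read 12.11 in GC+2, between 7.17 and 7.92 on the other high-side arrays and between 4.83 and 6.77 on the low side (2.96 ± 1.01). The low-side mean of Actg2, 5.75, lay under the filter on dim genes, so that it was tested through the high side and no p is given. Cnn1, the calponin of smooth muscle, read 8.49 in GC+2, 8.11 and 8.92 in GC-1 and GC-4 and 6.79 in GC+1, against 6.10 to 7.37 (1.55 ± 0.39, limma adjusted p = 0.247). The smooth muscle list as a whole had 6 of 12 genes higher, 6 lower and a median of -0.01 (8 higher and a median of 0.165 with arrays centred on the adipocyte list), and Acta2 read between 10.98 and 12.18 with its highest value in GC+4 on the low side.

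**Figure D3:**
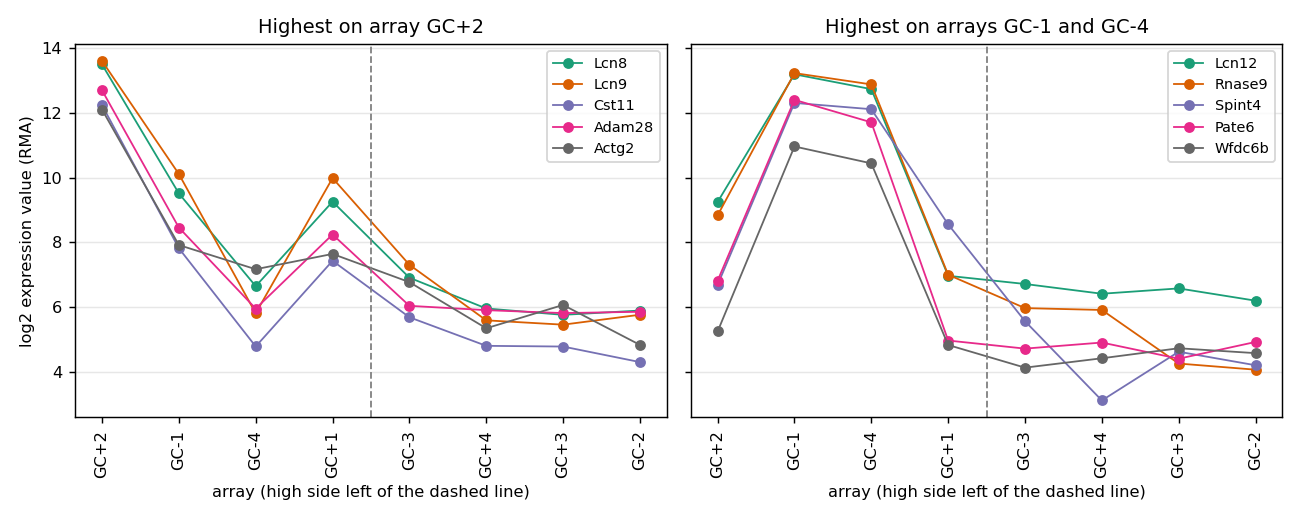
Log2 values of 5 genes that were highest in GC+2 (left) and 5 that were highest in GC-1 and GC-4 (right). The high side lies left of the dashed line and lines join the values of a gene. In GC-4 Lcn8 reads 6.64 and Lcn12 reads 12.74.

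Outside the lists, with predicted genes left out, the 15 largest positive differences included Cuzd1. They were taken after the values were seen, and 4 others are described here. GC-1 was the highest array for 12 of the 15 and GC+2 for 3, which were Tmem150c, Clpsl2 and Pate5. Sides did not overlap for 14 of the 15, against 2.69% of all tested genes, but the 15 were picked for their difference. Muc15, a membrane mucin, read 12.50 and 11.94 in GC-1 and GC-4, 11.24 and 6.36 in GC+2 and GC+1, and 4.08 to 5.47 on the low side (5.82 ± 1.06). Ces5a, a secreted carboxylesterase of the epididymis also called cauxin, differed by 4.66 ± 0.90, and Ptgds, the lipocalin-type prostaglandin D synthase, by 3.37 ± 0.74. Pate5 had the order of Lcn8, with 12.64 in GC+2, 8.18 and 7.75 in GC+1 and GC-1, and 5.26 in GC-4, within the 4.56 to 5.30 of the low side. On the low side 8 of the 15 had a mean under the filter on dim genes, so that their place among the tested genes came from the high side. The 5 genes outside the epididymal lists whose values correlated most with Gpx5, the gene that chose the sides, were Tada2a, Ssh3, Cuzd1, Golm2 and Spcs3. They were picked as the highest over 8 arrays among the tested genes outside those lists, with predicted genes left out. Nothing is read from the correlation.

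Genes of simple epithelium, the class of lining to which the duct belongs, were higher for 23 of 24 tested members, with a median difference of 1.69, against 6202 of 14786 genes higher and a median of -0.03 among all those tested. Since 10 of the 24 had a low-side mean under the filter on dim genes and passed through the high side, against 290 of all 14786 tested genes, these counts are a description and no p is given for single members. Epcam, an epithelial adhesion molecule, read 9.85 and 9.30 in GC-1 and GC-4, 9.21 and 6.03 in GC+2 and GC+1, and 5.28 to 5.92 on the low side (3.13 ± 0.68). Pax8, a transcription factor of the Wolffian duct lineage, read 9.84, 9.10, 9.45 and 6.09, against 5.18 to 5.53 (3.23 ± 0.69), and Prom1 read 11.33, 10.54, 9.15 and 6.40, against 5.51 to 6.12 (3.47 ± 0.73). The mean of the list relative to the average of the 8 arrays was 1.84 in GC-1, 1.22 in GC-4, 1.03 in GC+2 and -0.66 in GC+1, and between -0.96 and -0.75 on the low side. Sides did not overlap, with the high side higher, for 12 of the 24 genes, against 2.69% of all tested genes, and 0 passed the adjusted threshold in limma. With GC+1 left out, limma called 18 of the 24 higher, against 1.92% of all tested genes. With any other single array left out it called 0 of the 24. These calls share the limits of the filter and of the split, and nothing is read from them. Krt19 and Krt7, keratins that mesothelium also expresses, differed by -0.05 ± 0.32 and 0.29 ± 0.23. The basal cell factor Trp63 was 0.80 ± 0.21 higher (limma adjusted p = 0.247), and Krt14 differed by -0.18 ± 0.26, with a sign that turned when GC+1 was left out.

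As a list mean, transcripts of late sperm cells had another order of arrays than Gpx5, with 0.81 in GC+3 and -0.56 in GC+2. Of 14 tested genes 10 had positive and 4 negative differences, with a median of 0.19 (13 positive and a median of 0.358 with arrays centred on the adipocyte list), and sides overlapped for all 14. Smcp, a protein of the sperm mitochondrial capsule, read 10.53 and 9.21 in GC-1 and GC-4 and 8.71 in GC+3 on the low side, but 6.06 in GC+2. Tnp2, a transition protein of spermatid nuclei, read 8.95 in GC+3, 8.80 and 7.43 in GC-1 and GC-4, 7.52 in GC-3, and 5.17 to 5.38 on the other 4 arrays. GC+2, with the highest Gpx5, was thus among the lowest for Smcp and Tnp2, and GC+3, with low Gpx5, among the highest. Spata18 did not share this order. It read 8.95 and 7.74 in GC-1 and GC-4, 7.67 in GC+2, 7.29 in GC+3 and 5.87 to 6.38 on the other arrays. The brightest Odf1 probe set read between 12.57 and 12.92 on all 8 arrays and so showed neither pattern. With the mean of all probe sets of the gene, the Odf1 difference was 0.471, and its separate probe sets are not described here. Among Leydig and Sertoli cell genes, 2 of 5 were higher with a median of -0.05 (4 of 5 and 0.123 centred on adipocytes). Cyp17a1, a steroid hydroxylase of androgen synthesis, read 8.04 and 7.40 in GC-1 and GC-4 and 5.20 to 6.18 elsewhere (1.37 ± 0.46). Its low-side mean of 5.34 lay under the filter on dim genes, so that no p is given. Sox9 was higher on all high-side arrays, at 7.20 to 9.27 against 6.73 to 6.95 (1.41 ± 0.39, limma adjusted p = 0.25). Of 10 named genes of seminal vesicle, vas deferens and prostate 1, Tgm4, passed the filter on dim genes, and it read between 5.74 and 6.16.

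**Figure D4:**
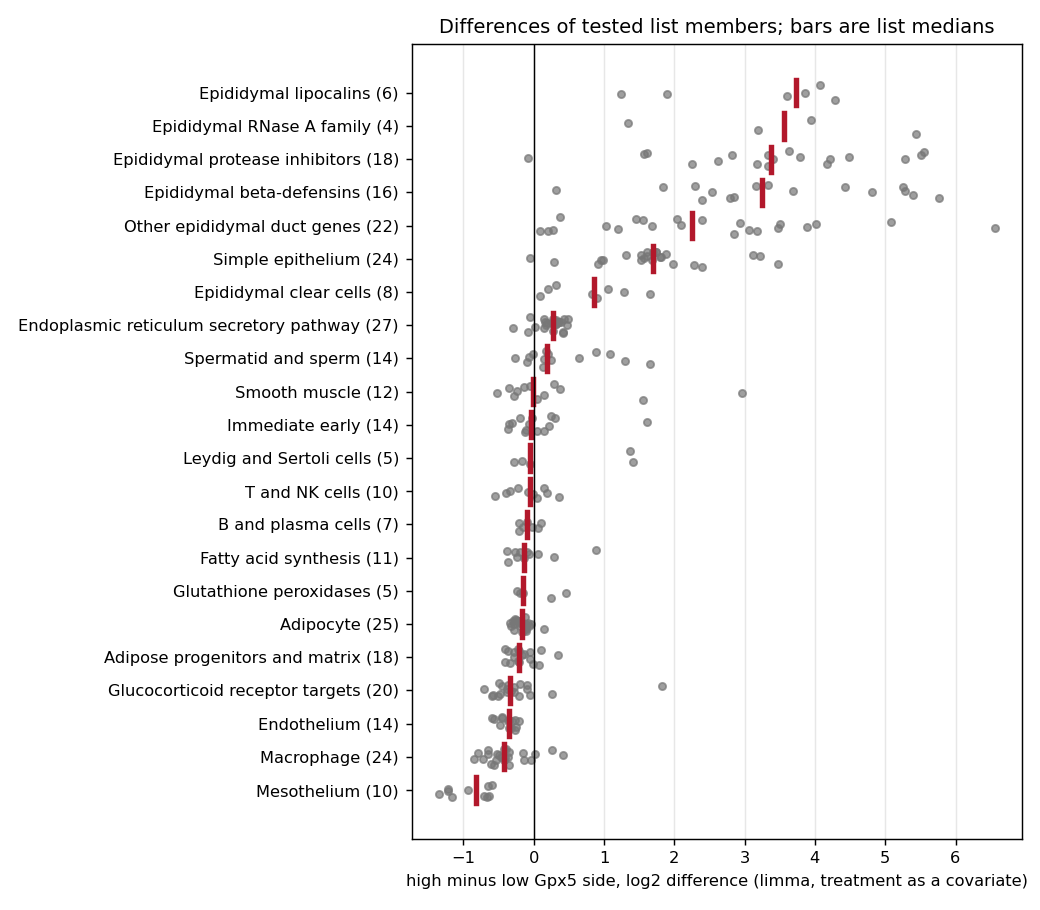
Differences of tested list members between the high and the low Gpx5 side on the log2 scale, from limma with treatment as a covariate. Grey points are genes, red bars list medians and the number tested stands after each list name. Epididymal lists have medians from 2.25 to 3.73 and mesothelium has the lowest median at -0.82.

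The cells of the fat pad itself had smaller differences, mostly of the opposite sign. Adipocyte genes were lower for 24 of 25 tested members with a median difference of -0.17 (13 of 25 and a median of -0.003 when each array was centred on this list), 0 of them with sides that did not overlap and 0 past the adjusted threshold in limma. That centring makes the mean of this list equal on all arrays, so that nothing is read from its centred count and median. Cd36, a fatty acid transporter, read 13.09 and 13.25 in GC-1 and GC-4, 13.22 and 13.30 in GC+2 and GC+1, and 13.29 to 13.46 on the low side (-0.19 ± 0.07, limma adjusted p = 0.305). GC-1 was the lowest array for the mean of this list, at -0.31 relative to the average of the 8 arrays, while GC+1 stood at 0.13, inside the -0.06 to 0.16 of the low side. RMA values are relative within an array. Among all tested genes 8551 of 14786 were lower, whereas centring on the adipocyte list raised the median of all genes by 0.169 and left 3220 lower. Counts or medians under that centring are given in parentheses where the sign turned or the median moved by over 1.5 times.

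Mesothelial genes, which mark the lining that covers the fat pad, were lower for 10 of 10 tested members with a median difference of -0.82, and 4 of them had sides that did not overlap, against 3.24% of all tested genes in this direction (10 of 10 and -0.652 centred on adipocytes). Upk3b, a uroplakin of mesothelium, read 7.82 and 9.71 in GC-4 and GC-1, 8.76 and 9.78 in GC+2 and GC+1, and 9.93 to 11.04 on the low side (-1.34 ± 0.47, limma adjusted p = 0.282). Msln, mesothelin, differed by -1.16 ± 0.35 with an adjusted p of 0.256 in limma, and Gpm6a by -1.22 ± 0.37 with 0.255. GC-4 was the lowest array for this list, with a mean of -1.15, and GC-3 the highest, with 1.04. Left out 1 at a time, no array gave an adjusted call in the list except GC+1, without which 1 of the 10 was called lower, against 0.128% of all tested genes.

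Macrophage genes were lower for 21 of 24 members with a median of -0.42 (18 of 24 and -0.249 centred on adipocytes), and endothelial genes for 14 of 14 with a median of -0.35 (14 of 14 and -0.18), with 0 adjusted calls in either list by limma. Cd163, a scavenger receptor of resident macrophages, read 8.09 and 8.80 in GC-1 and GC-4, 8.47 and 8.93 in GC+2 and GC+1, and 9.10 to 9.54 on the low side (-0.79 ± 0.20, limma adjusted p = 0.247). It was the only macrophage gene of the 24 whose sides did not overlap, against 3.24% of all tested genes in this direction. The macrophage mean was -0.59 and -0.53 in GC-1 and GC-4 but 0.39 in GC+1, and on the low side it ranged from -0.13 to 0.52. Ptprb, an endothelial phosphatase, differed by -0.56 ± 0.18 (limma adjusted p = 0.264), and no endothelial gene had sides apart. The other genes named for the lower direction were Fgf1 (-0.73 ± 0.14), Wnt2b (-0.74 ± 0.22), Tes (-0.73 ± 0.17) and Stmn2 (-0.72 ± 0.15), with limma adjusted p-values from 0.247 to 0.254. Adipose progenitor and matrix genes were lower for 15 of 18, with a median of -0.21 (10 of 18 and -0.04 centred on adipocytes), and the T and NK cell and B and plasma cell lists had medians of -0.05 and -0.09 (0.121 and 0.075 centred on adipocytes). The 11 tested genes of fatty acid synthesis had a median of -0.13 (0.037 centred on adipocytes).

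**Figure D5:**
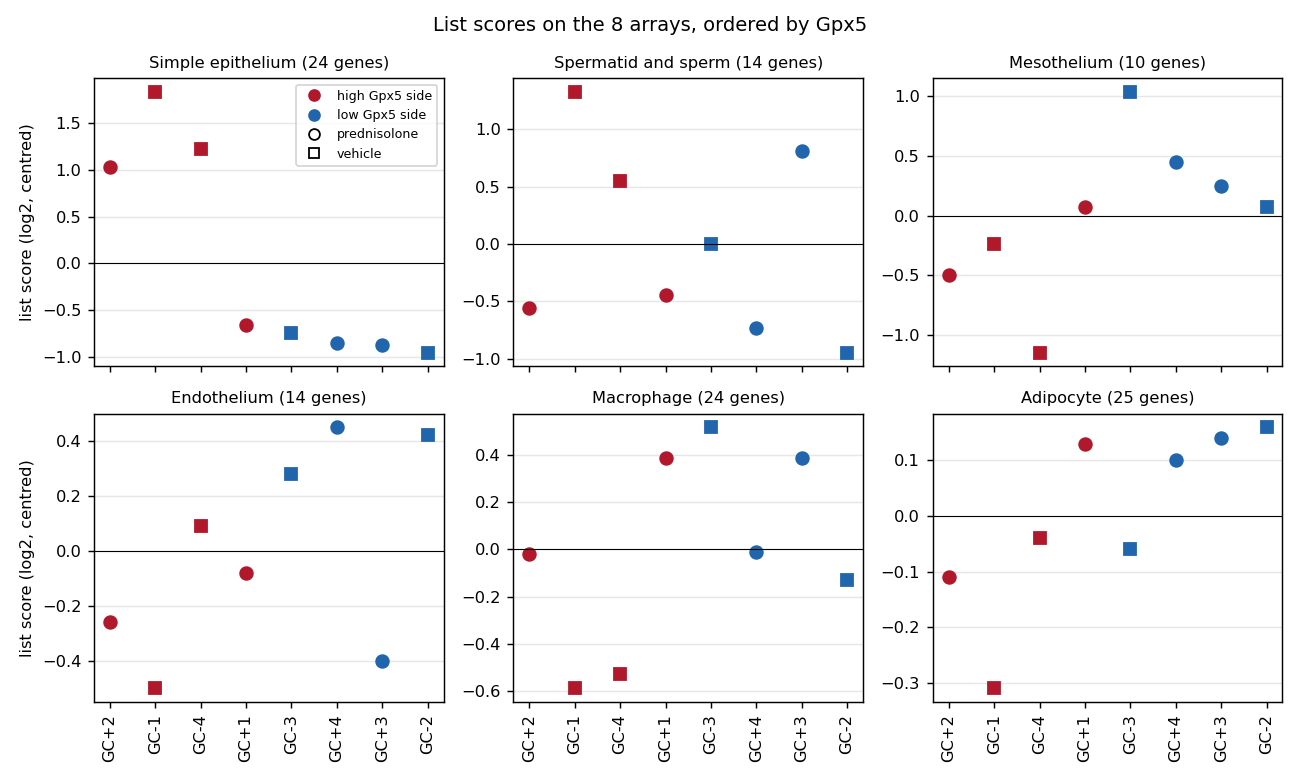
Mean over tested list members of each log2 value minus its mean over the 8 arrays, per array, ordered from the highest to the lowest Gpx5. Red is the high and blue the low side, circles prednisolone and squares vehicle mice, and the vertical scales differ between panels. Simple epithelium is high on 3 arrays, spermatid genes are high in GC+3 on the low side, and mesothelium ranges from -1.15 to 1.04.

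Genes of the secretory pathway in the endoplasmic reticulum, through which secreted proteins are folded and exported, were higher for 24 of 27 tested members with a median of 0.28 (26 of 27 and 0.45 centred on adipocytes). Spcs3 read 9.43 and 9.34 in GC-1 and GC-4, 9.36 and 9.03 in GC+2 and GC+1, and 8.71 to 8.96 on the low side (0.47 ± 0.10, limma adjusted p = 0.247). It was the only member of the 27 whose sides did not overlap, against 2.69% of all tested genes in this direction. Calr, the chaperone calreticulin, differed by 0.35 ± 0.12 (limma adjusted p = 0.277). Of the glutathione peroxidases outside the epididymal lists, 2 of 5 tested members were higher and the median was -0.15 (0.016 centred on adipocytes). Gpx6 was counted with the other duct genes. It read 7.78 and 6.87 in GC-1 and GC-4, 7.64 and 5.20 in GC+2 and GC+1, and 5.03 to 5.32 on the low side. Gpx3, the plasma enzyme, read 10.86 and 11.14 in GC-1 and GC-4 and 10.10 to 10.52 on the other 6 arrays (0.46 ± 0.09, limma adjusted p = 0.247).

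Known targets of the glucocorticoid receptor were lower on the high side for 18 of 20 members, with a median of -0.34 (15 of 20 and -0.174 centred on adipocytes) and 0 adjusted calls by limma. Dusp1, a phosphatase of MAP kinases, read 9.71 to 10.00 on the high side and 10.23 to 10.72 on the low side (-0.57 ± 0.10, limma adjusted p = 0.247), so that its sides did not overlap. Lcn2, an acute phase lipocalin, went the other way, with 11.11 to 12.44 on the high side and 8.79 to 11.001 on the low side (1.83 ± 0.51, limma adjusted p = 0.25). Among immediate early genes, 6 of 14 were higher and the median was -0.04 (0.126 centred on adipocytes). Egr2 read 9.12 and 8.23 in GC-1 and GC-4, 9.41 and 7.52 in GC+2 and GC+1, and 6.68 to 7.24 on the low side (1.61 ± 0.40, limma adjusted p = 0.247).

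With the side as a covariate, prednisolone minus vehicle gave 0 genes with a limma adjusted p under 0.05, 0% of those tested, with 714 genes higher and 635 lower at an unadjusted p under 0.05. The lowest adjusted p was 0.133, for Dock8, an activator of small GTPases in leukocytes. Dock8 read 9.50 to 10.31 in the prednisolone mice and 8.47 to 8.96 in the vehicle mice, a difference of 1.09 ± 0.12, and the groups did not overlap on either Gpx5 side. Hspb7, a small heat shock protein, differed by 1.31 ± 0.35 and Stc1, a secreted glycoprotein, by -1.51 ± 0.41, both with an adjusted p of 0.51 by limma. Ahsg, the plasma protein fetuin A, read 8.97 and 9.84 in GC-1 and GC-4, on the high side, 7.11 and 6.70 in GC-2 and GC-3 and 5.70 to 6.58 in the prednisolone mice (-2.03 ± 0.53, limma adjusted p = 0.51). Epididymal genes were lower with prednisolone in this fit for 50 of the 66, with a median of -1.22 and 0 adjusted calls. Among all tested genes 6695 of 14786 were lower, with a median of 0.02. Of the 66, 31 passed the filter through the high side, so that this count is a description.

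The difference between prednisolone and vehicle was itself compared between the sides, with 2 arrays in each combination. The interaction passed a limma adjusted p of 0.05 for 50 genes, 0.338% of those tested, all of them with a lower prednisolone difference on the high side. All 50 had their highest values in GC-1 and GC-4, and 12 of them were in the epididymal lists. For 27 of the 50 the low-side mean lay under the filter on dim genes, so that they were tested through the side that Gpx5 chose, and with no such filter the count was 59. Single genes are therefore given as values, with no p. Pate6, a secreted protein of the Pate family, read 12.41 and 11.71 in GC-1 and GC-4, 6.81 and 4.96 in GC+2 and GC+1, and 4.40 to 4.92 on the low side (interaction -6.01 ± 0.80). Wfdc6b read 10.97 and 10.44, then 5.24 and 4.82, then 4.12 to 4.72 on the low side (-5.89 ± 0.36). Defb39 had an interaction of -5.94 ± 0.59, Nxf3, an RNA export factor, of -5.73 ± 0.56 and Muc5b, a secreted mucin, of -5.52 ± 0.46. Members of the other order had interactions of the opposite sign with wide errors, such as Lcn9 at 4.85 ± 2.24. Values of the epididymal genes also differed between the combinations. The mean of the 66 genes relative to their average was 2.42 in the vehicle and 0.65 in the prednisolone mice of the high side. On the low side it was -1.47 and -1.60, and Gpx5 averaged 13.69 and 12.54 on the high side. The part of this in the interaction was not tested. The count of calls changed with single arrays. It was 4 without GC+3, 1 without GC+4, 6 without GC-3, 20 without GC-1 and 135 without GC+2.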

How the data were processed

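Total RNA of epididymal fat, 100 ng per mouse, was measured on Affymetrix Mouse Gene 2.0 ST arrays, 1 per mouse. The values that the authors deposited are on the log2 scale, made by RMA in Expression Console, per the labels. The submitters' processing notes list Partek 6.6 too, without a role. The array's annotation version and genome build are not stated by any source used. RMA equalises array distributions and compresses differences at low signal.

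Of 41345 probe sets, 23521 had 1 gene symbol, 1814 several and 16010 none in the platform annotation, and 23328 of those with 1 symbol matched RefSeq genes by Entrez identifier, which changed 0 symbols. The brightest probe set was kept for each of 22180 genes. The dimmest 33.3% by mean over 8 arrays (7393 genes, up to a log2 value of 5.82) and Gpx5 were left out, leaving 14786. Models were fitted with lmFit and eBayes in limma 3.58.1 under R 4.3.3: side plus treatment with 5 residual degrees of freedom, and side by treatment with 4. P-values were adjusted by Benjamini-Hochberg over all tested genes, at 0.05. The fit was tested on simulated data. The number of arrays limits the precision.

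The members, the gene lists and the tests were chosen with earlier results of these data known. Genes were named as the 12 largest differences a direction past the adjusted threshold, filled to 5 from genes with unadjusted p under 0.01 and sides that did not overlap. Up to 4 members per list with the lowest p, the 5 largest treatment and interaction differences a direction (filled to 3) and the 5 genes most correlated with Gpx5 were added, leaving out predicted genes, receptors of smell and taste and small RNAs. Other genes were chosen after their values were seen. Lists are described by counts and medians, with no set test. Alternatives changed the filter, probe set, normalization, variance model, array weights, covariates and Gpx5 threshold, added the replicate number as a block, or left out each mouse. Figures were drawn with matplotlib 3.10.9.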

Additional observations from a re-analysis of the deposited data

Results flagged for a closer look

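Among 4 arrays of a side, Gpx5 of GC+1 (11.27) lay far below the nearest other high-side array (13.61), and Gpx5 of GC-3 (8.69) far above the nearest other low-side array (4.76). Adam7 of GC+1 (9.15) likewise lay far below the nearest high-side array (13.21). Chance flags about 1 in 20 such groups, and the sides were themselves formed from Gpx5. The interaction of limma, the prednisolone minus vehicle difference on the high side minus that on the low side, was past the adjusted threshold for Pate6 (-6.01), Defb39 (-5.94), Wfdc6b (-5.89), Nxf3 (-5.73) and Muc5b (-5.52), each with 2 arrays per combination. The low-side means of Pate6, Defb39, Wfdc6b and Nxf3 (4.73, 4.17, 4.46 and 5.26) lay under the filter on dim genes (5.82), so that these genes were tested through the high side, which Gpx5 chose, and the values are a description.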

How the results depend on the processing

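The count of genes called high minus low was 1 in the main setting and stayed 1 with no filter on dim genes, the dimmest 50% left out, the mean of all probe sets, repeated quantile normalization, and centring on the adipocyte list. It was 0 with trend and robust variance, with the replicate block, without the treatment covariate and with Gpx5 as a continuous covariate. It was 2 with array quality weights, 430 with a Gpx5 threshold of 12 and 173 with the arrays of GC+1 and GC-3 both left out. Leaving out 1 array at a time gave 0 to 303 calls. The count for prednisolone minus vehicle with the side as a covariate was 0 in the main setting and under all 20 alternatives run for it (1349 genes at unadjusted p under 0.05 in the main setting). The interaction count was 50 in the main setting, 27 with the dimmest 50% left out, 0 with the replicate block, 95 with a threshold of 12 and 21 with GC+1 and GC-3 left out, and it was 1 to 135 without 1 array at a time. The cause of these changes was not tested.

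The replicate numbers did not pair the samples: the correlations of deviations from the group means for numbers 1 to 4 were -0.20, -0.57, 0.13 and -0.27. Over 2005 recomputed differences of named and listed genes, 1914 kept direction and side of the threshold, 11 were weaker, 69 stronger and 11 reversed. In the main setting 1 gene was called, so that most kept their side of the threshold by staying uncalled. Nothing is read from the 1914. The reversed differences were those of Krt14 (0.156 with the replicate block, 0.188 with a threshold of 12, and a range of -0.386 to 0.059 over the arrays left out in turn, positive without GC+1), Odf1 (0.471 with the mean of all probe sets, 0.076 centred on the adipocyte list) and Acaca (-0.682 to 0.043 over the arrays left out, positive without GC+3). Centred on the adipocyte list, Srd5a3 was 0.022, Rhox5 0.009, Blk 0.022, Fcmr 0.075 and Gpx4 0.016. Signal near the background limits the dim epididymal genes, since RMA compresses differences there.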
